A study of Mus musculus with 6 samples.

Results

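Complex I of the mitochondrial respiratory chain was examined in testis through the genes whose symbol starts with Nduf, the prefix given to nuclear genes for subunits and assembly factors of NADH:ubiquinone oxidoreductase. The deposited gene tables held 45 such genes among 24411, and all 45 were among the 17110 genes with enough counts to be tested. By role they comprised 36 subunit genes (7 core and 29 accessory), 7 Ndufaf assembly factors, and 2 genes, Ndufa4 and Ndufa4l2, that carry the prefix although NDUFA4 is now counted with complex IV. RNA had been sequenced from testes of age-matched C57BL/6 mice, with 3 samples given as MRP5-/- and MRP9-/- (DKO-labelled below) and 3 given as Wildtype (WT-labelled). Both proteins are membrane transporters of the ABCC family, and no other allele or agent is given in the labels. The labels do not state the age or the design of the alleles. Abcc12, which encodes MRP9, had 72.6 to 82.4 CPM in DKO-labelled libraries and 158 to 165 CPM in WT-labelled ones. Abcc5, which encodes MRP5, was higher in DKO-labelled libraries (16.7 to 17.0 against 10.5 to 12.3 CPM), which goes against what the label would lead one to look for, so groups are named by their labels.

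Complex I is the entry point of the respiratory chain for electrons from NADH, and it pumps protons across the inner mitochondrial membrane. Its L shape has a peripheral arm in the matrix, which holds the flavin, the iron-sulfur clusters and the quinone site, and a membrane arm that pumps protons. Core subunits are conserved from bacteria and carry out catalysis, accessory subunits surround and stabilise them, and assembly factors help to build the complex without being part of it. In the seminiferous tubules, meiotic cells and spermatids rely on mitochondrial respiration, and mature sperm carry their mitochondria in the midpiece. The core subunits of the membrane arm are encoded in mitochondrial DNA and are not analysed here.

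Libraries labelled DKO held 42673615 to 67131103 expected counts and WT-labelled ones 26753721 to 31745969. The mean length of the sequenced fragments was also longer in DKO-labelled libraries, at 317, 289 and 275 bases in replicates 1 to 3 against 258, 230 and 246 bases in WT-labelled ones. Neither quantity overlapped between the groups, so both move with the genotype label and cannot be told apart from it by group. Of the cell-type markers, 3 of 7 for Leydig cells and 4 of 8 for Sertoli cells were lower in DKO-labelled libraries. For spermatocytes 3 of 7 were higher (edgeR quasi-likelihood test, adjusted p under 0.05), against 5.1% lower and 5.75% higher of all tested genes. Macrophage markers (0 of 5) and peritubular and endothelial markers (0 of 4) did not pass, with median log2 fold changes of -0.38 and -0.30. Summed TPM (a level corrected for transcript length) was 624 to 768 against 970 to 1165 for Sertoli markers, DKO-labelled against WT-labelled. It was 845 to 1502 against 1482 to 3105 for Leydig markers, 643 to 820 against 528 to 606 for spermatocyte markers, and 104649 to 114649 against 97351 to 106432 for spermatid markers. Of the 7 spermatid and 7 spermatogonia markers none passed the test. With trends on transcript length and GC content removed, the median log2 fold change of spermatocyte markers moved from 0.31 to 0.09. That of Sertoli markers moved from -0.36 to -0.21 and that of Leydig markers from -0.50 to -0.68. For spermatid markers it moved from -0.11 to 0.13, and for spermatogonia markers from 0.0043 to 0.11. Epididymal markers stayed at 5.05 to 7.40 TPM in sum, with Lcn5, Lcn8, Lcn9 and Rnase9 too low to be tested. In bulk tissue, fewer cells of a type and less RNA per cell cannot be told apart, and the part of these markers in the results on complex I was not tested.

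Transcript levels of the subunits spanned a wide range although nearly all of them are present as a single copy in the complex. Averaged over all 6 libraries, Ndufb8, a membrane arm subunit, was highest at 514 TPM, followed by Ndufa7 at 443 TPM and Ndufa12 at 356 TPM, both of the peripheral arm. Ndufa11, a membrane arm subunit, was lowest among the subunits at 11.3 TPM, so the highest and lowest differed 45.6-fold. The level of Ndufa11 rests on a listed transcript of 2661 bases, against a median of 646 bases for the subunits. The 7 core subunits lay within a narrower range, from Ndufs7 at 45.4 TPM to Ndufv2 at 197 TPM. Assembly factors were mostly lower. The median level of the subunits was 128 TPM, and 5 of the 7 assembly factors lay at or under 17.7 TPM (Ndufaf7), with Ndufaf6 at 1.117 TPM, Ndufaf4 at 1.97 TPM and Ndufaf5 at 3.63 TPM. Ndufaf3 and Ndufaf2 stood apart from the other assembly factors at 265 and 215 TPM, as high as many subunits.

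**Figure D1:**
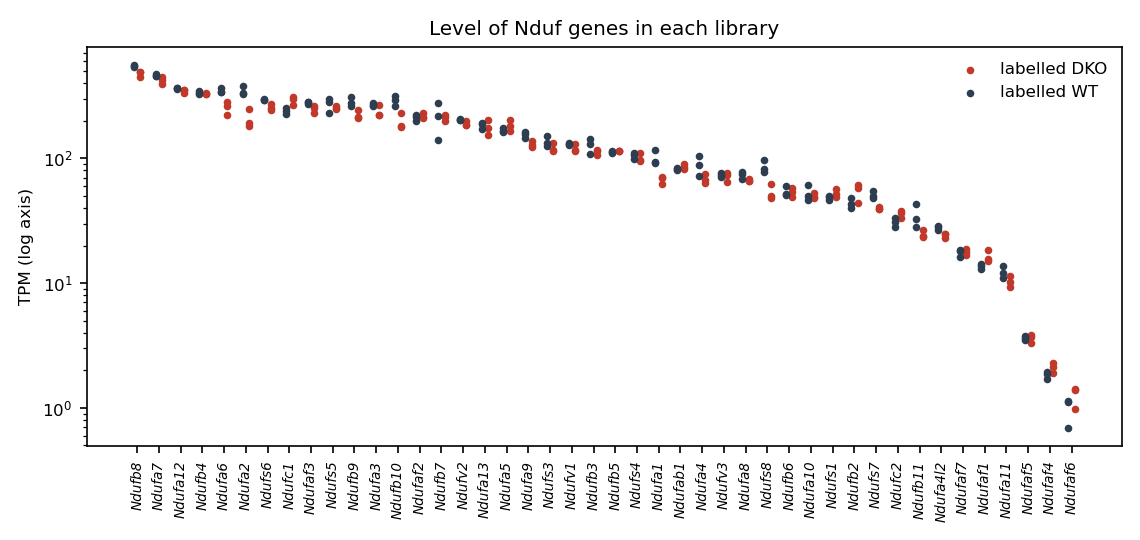
TPM on a log axis for Nduf genes, ordered by mean level, with 1 point per library (red, labelled DKO; dark blue, labelled WT; 3 libraries each). Levels run from 514 TPM for Ndufb8 to 1.117 TPM for Ndufaf6 on average.

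Summed over the 36 subunit genes, TPM was 5492, 5887 and 5848 in DKO-labelled libraries (5742 ± 218, SD, n = 3) and 6210, 6738 and 6412 in WT-labelled ones (6453 ± 267, SD, n = 3). The groups did not overlap. The summed TPM of the 7 assembly factors was 506, 505 and 518 against 508, 535 and 546, with DKO replicate 3 above WT replicate 1.

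The genotype comparison asked which complex I genes differ between the groups. Of the 36 subunit genes, 11 were lower in DKO-labelled libraries and 0 were higher. Across all 17110 tested genes 5.1% were lower and 5.75% higher at the same threshold, an adjusted p under 0.05 in the edgeR quasi-likelihood test with Benjamini-Hochberg adjustment over all genes. Another 25 subunit genes did not pass the test. The median log2 fold change of the 36 was -0.20, against -0.0042 over all tested genes, and 30 of the 36 were below 0, as were 50.7% of all genes. DESeq2 called 16 of the 36 lower and 0 higher, against 8.7% and 11.7% of the genes it tested. In 17 of the 36, every DKO-labelled library lay below every WT-labelled library, a pattern found in 17.5% of all tested genes. The reverse held in 1 of the 36, against 18.4% of all genes. The call of these genes depends on single libraries: without DKO replicate 1, WT replicate 2 or WT replicate 3, 0 subunits passed, and of all genes only 11, 13 and 7 did. At an unadjusted p under 0.05 there were 17, 16 and 15 of the 36 subunits in these fits (47.2%, 44.4% and 41.7%), against 20.9%, 21.8% and 24.8% of all genes. Leaving out any of the other 3 libraries gave 11 to 13 lower subunits. Models that take transcript length, or length and GC content, into account left 7 and 4, as given with the transcript lengths. Nothing in the labels says more about the 3 samples of a group than that they are separate. The p-values therefore set the difference between the groups against the spread between these samples.

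Core subunits of the peripheral arm were examined first. Ndufs8, which carries iron-sulfur clusters on the path of electrons to the quinone, had 17.3, 23.7 and 18.2 CPM (counts relative to the scaled library size) in the 3 DKO-labelled libraries. Those labelled WT had 30.2, 35.9 and 31.1 CPM. Every DKO-labelled library was below every WT-labelled library, with DKO replicate 2 nearest to them. Ndufs8 fell by 0.72 on the log2 scale (SE 0.120; edgeR adjusted p = 0.0225). Ndufs7, which holds the last iron-sulfur cluster before the quinone, had 12.3, 14.0 and 12.8 CPM against 16.8, 18.3 and 17.1 CPM, DKO-labelled against WT-labelled. It fell by 0.42 on the log2 scale (SE 0.0889; edgeR adjusted p = 0.0272), again without overlap.

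No other core subunit passed the test. Ndufs3, a structural core subunit beside the quinone module, had a log2 fold change of -0.19 (edgeR adjusted p = 0.146). Ndufv1, which binds the flavin and oxidises NADH, had a log2 fold change of -0.07, and its partner Ndufv2 one of -0.08. Ndufs1, the largest subunit and the carrier of several iron-sulfur clusters, had 88.9, 86.3 and 92.4 CPM against 78.5, 78.7 and 79.9 CPM, DKO-labelled against WT-labelled. All 3 of its values labelled DKO were above WT-labelled ones, and its log2 fold change was 0.17 (SE 0.0657; edgeR adjusted p = 0.0957). Within the core, the 2 genes that fell had the shortest transcripts, Ndufs7 (758 bases) and Ndufs8 (814 bases), while Ndufs1 (2710 bases) had the longest. Both also passed in the models that take transcript length alone into account, given below.

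**Figure D2:**
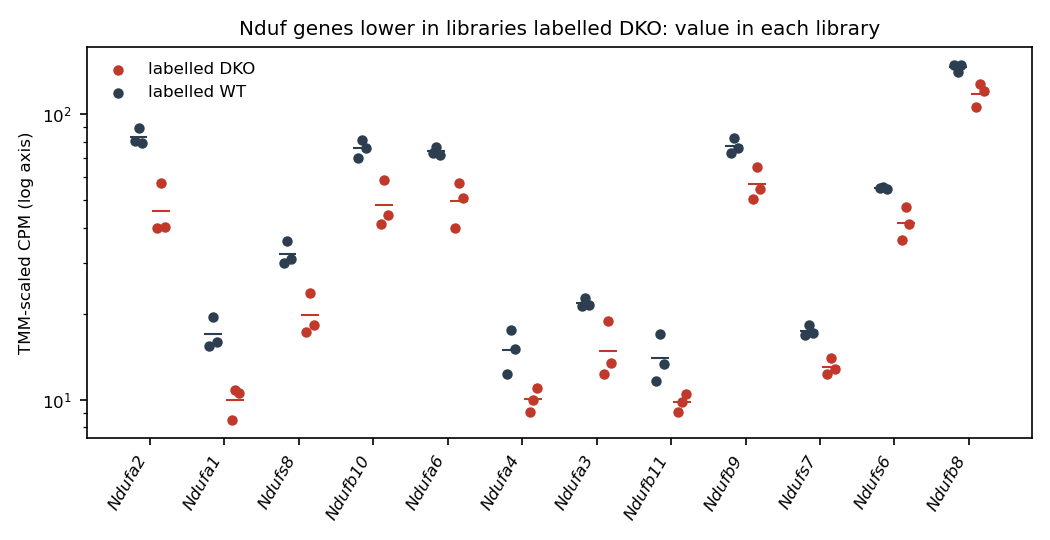
TMM-scaled CPM on a log axis in each library for the 12 Nduf genes that passed the test, ordered from the largest decrease (left), with 1 point per library and a bar at the group mean (red, labelled DKO; dark blue, labelled WT). For each gene the 3 DKO-labelled libraries lie below the 3 labelled WT, and Ndufa2 runs from 39.8 to 57.4 CPM against 78.9 to 89.2 CPM.

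Among the accessory subunits, 9 of 29 fell and 0 rose, against 5.1% and 5.75% of all tested genes. The largest decrease of all 45 genes was that of Ndufa2, a thioredoxin-like subunit of the NADH-oxidising end of the peripheral arm. Ndufa2 had 39.8, 57.4 and 40.0 CPM in DKO-labelled libraries and 80.2, 89.2 and 78.9 CPM in WT-labelled ones. It fell by 0.86 on the log2 scale (SE 0.128; edgeR adjusted p = 0.0225), to 44.8% below the labelled WT level, and the groups did not overlap. Ndufa6, a peripheral arm subunit that docks an acyl carrier protein, had 39.9, 57.5 and 50.8 CPM against 73.2, 76.5 and 71.8 CPM. It fell by 0.58 on the log2 scale (SE 0.112; edgeR adjusted p = 0.0253). Ndufs6, the zinc-binding subunit added late to the peripheral arm, had 36.3, 47.1 and 41.0 CPM against 54.9, 55.5 and 54.7 CPM and fell by 0.41 on that scale (SE 0.0910; edgeR adjusted p = 0.0297). With both core genes, 5 of the 16 peripheral arm genes fell, against 5.1% of all tested genes.

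Of the 19 membrane arm genes, 6 fell, against 5.1% of all tested genes. Ndufa1, a small X-linked subunit with a single membrane span, had 8.46, 10.8 and 10.5 CPM in DKO-labelled libraries and 15.4, 19.5 and 15.9 CPM in WT-labelled ones. The groups did not overlap, and Ndufa1 fell by 0.77 on the log2 scale (SE 0.122; edgeR adjusted p = 0.0225). Ndufb11, the other X-linked subunit gene, had 9.06, 9.84 and 10.5 CPM against 11.6, 17.0 and 13.3 CPM and fell by 0.52 on the log2 scale (SE 0.132; edgeR adjusted p = 0.0372). Of all 677 tested genes on the X chromosome, 3.4% were lower and 8.86% higher, with a median log2 fold change of 0.07.

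Ndufb10, which faces the intermembrane space, had 41.2, 58.8 and 44.4 CPM against 70.0, 81.2 and 76.2 CPM and fell by 0.66 on the log2 scale (SE 0.119; edgeR adjusted p = 0.0237). Ndufb9, which docks a second copy of the acyl carrier protein at the tip of the membrane arm, had 50.5, 65.1 and 54.6 CPM against 72.8, 82.1 and 76.2 CPM and fell by 0.44. Ndufa3, a small membrane-spanning subunit, had 12.3, 18.8 and 13.4 CPM against 21.2, 22.7 and 21.5 CPM and fell by 0.56. Ndufb8 fell least of the 6, by 0.31 on the log2 scale, from 148, 140 and 148 CPM in WT-labelled libraries to 105, 127 and 121 CPM in those labelled DKO. The edgeR adjusted p was 0.0282 for Ndufb9, 0.0353 for Ndufa3 and 0.0384 for Ndufb8. In 10 of the 11 lower subunits, all but Ndufb11, replicate 2 was the highest of the DKO-labelled libraries. How often other genes show this order was not examined, so it is not given as a trait of complex I genes. In TPM, Ndufa3 overlapped between the groups.

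Accessory subunits that missed the threshold included abundant ones. Ndufa7 (log2 fold change -0.32; edgeR adjusted p = 0.0514) and Ndufb4 (-0.27; 0.0518) lay closest to it, and neither overlapped between groups in CPM. Ndufa12, an accessory subunit of the peripheral arm, had 63.1, 71.8 and 64.9 CPM against 78.2, 74.98 and 78.3 CPM (log2 fold change -0.21; edgeR adjusted p = 0.0742). At the other end lay genes with hardly any difference: Ndufb5 stood at 56.9 ± 1.75 against 56.5 ± 1.29 CPM and Ndufab1, the acyl carrier protein itself, at 30.6 ± 1.196 against 30.3 ± 1.23 CPM (SD, n = 3 each, DKO-labelled against WT-labelled). Ndufb7 had the largest SE of the log2 fold change among the accessory subunits (0.180). It had 27.6 CPM in WT replicate 1 against 53.2 and 42.4 CPM in the other 2 WT-labelled libraries. The remaining accessory subunits that did not pass had log2 fold changes between -0.34 (Ndufb3) and 0.12 (Ndufc2).

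Ndufa4, the complex IV subunit under a complex I symbol, had 9.08, 9.95 and 10.999 CPM in DKO-labelled libraries and 12.3, 17.6 and 14.995 CPM in WT-labelled ones, and fell by 0.58 on the log2 scale (SE 0.129; edgeR adjusted p = 0.0299). Its CPM did not overlap between the groups, but its TPM did. In the models described below it did not pass with the effective-length offset (-0.33; edgeR adjusted p = 0.0736). Nor did it pass with the length trend removed (-0.39; edgeR adjusted p = 0.0697) or with length and GC trends removed (-0.48; 0.0732). Its paralog Ndufa4l2 had a log2 fold change of -0.22 (edgeR adjusted p = 0.0974).

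Among the assembly factors, 0 of 7 passed the edgeR test in either direction, against 5.1% lower and 5.75% higher of all tested genes. At an unadjusted p under 0.05 there were 2 of 7, against 31.7% of all genes. DESeq2 called 0 of 7, against 8.7% lower and 11.7% higher of the genes it tested. The median log2 fold change of the assembly factors was 0.06, against -0.0042 over all tested genes. It ranged from -0.0034 with the fragment length covariate to 0.12 after thinning. Whether they differ from the subunits as a group was not tested. Ndufaf3, which acts early in building the quinone module, had 124, 144 and 139 CPM in DKO-labelled libraries and 154, 150 and 156 CPM in WT-labelled ones. The groups did not overlap, but the log2 fold change of -0.18 did not pass the test (edgeR adjusted p = 0.132). Ndufaf4, the partner of Ndufaf3, had 5.48, 4.59 and 4.78 CPM against 3.98, 4.15 and 4.23 CPM, a log2 fold change of 0.26 (edgeR adjusted p = 0.170). Ndufaf1, a factor of the membrane arm assembly complex, had 14.9, 13.2 and 11.96 CPM against 10.7, 10.5 and 11.5 CPM, a log2 fold change of 0.29 (edgeR adjusted p = 0.0841). Without DKO replicate 3 it passed the threshold, the single call of an assembly factor in any fit run.

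Ndufaf2, a late-acting factor that helps to add the NADH-oxidising module, was at 59.8 ± 0.810 CPM in DKO-labelled libraries and 61.1 ± 2.98 CPM in WT-labelled ones (SD, n = 3 each; log2 fold change -0.03). Ndufaf5, which modifies Ndufs7, and Ndufaf7, a methyltransferase, had log2 fold changes of 0.05 and 0.06, with overlapping groups. Ndufaf6, an early assembly factor, was counted at only 0.388 to 0.795 CPM. Its log2 fold change of 0.34 carried an SE of 0.294 and did not pass the test (edgeR adjusted p = 0.451). The part of its low count in that SE was not tested.

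Another 14 genes known to take part in complex I assembly under other symbols were examined beside them. In either direction 0 of 14 passed the edgeR test (median log2 fold change 0.04), against 5.1% lower and 5.75% higher of all tested genes. At an unadjusted p under 0.05 there was 1 of 14, against 31.7% of all genes. DESeq2 called 1 of the 14 higher, against 11.7% of the genes it tested. The 14 include Ecsit, Acad9 and Tmem126b, which act with Ndufaf1, and Nubpl, which delivers iron-sulfur clusters. Their log2 fold changes were 0.05, -0.05, 0.12 and 0.07. The gene nearest to the threshold was Tmem261, named Dmac1 in newer annotation and needed for the far part of the membrane arm. It had 13.4, 12.4 and 12.5 CPM in DKO-labelled libraries and 10.8, 9.10 and 10.7 CPM in WT-labelled ones, without overlap (0.33 on the log2 scale, SE 0.0980; edgeR adjusted p = 0.0523). The tables also list 1810043H04Rik, the older symbol of Ndufaf8, which the prefix does not find and which was added after its values were seen. It had a log2 fold change of -0.16 (edgeR adjusted p = 0.382).

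**Figure D3:**
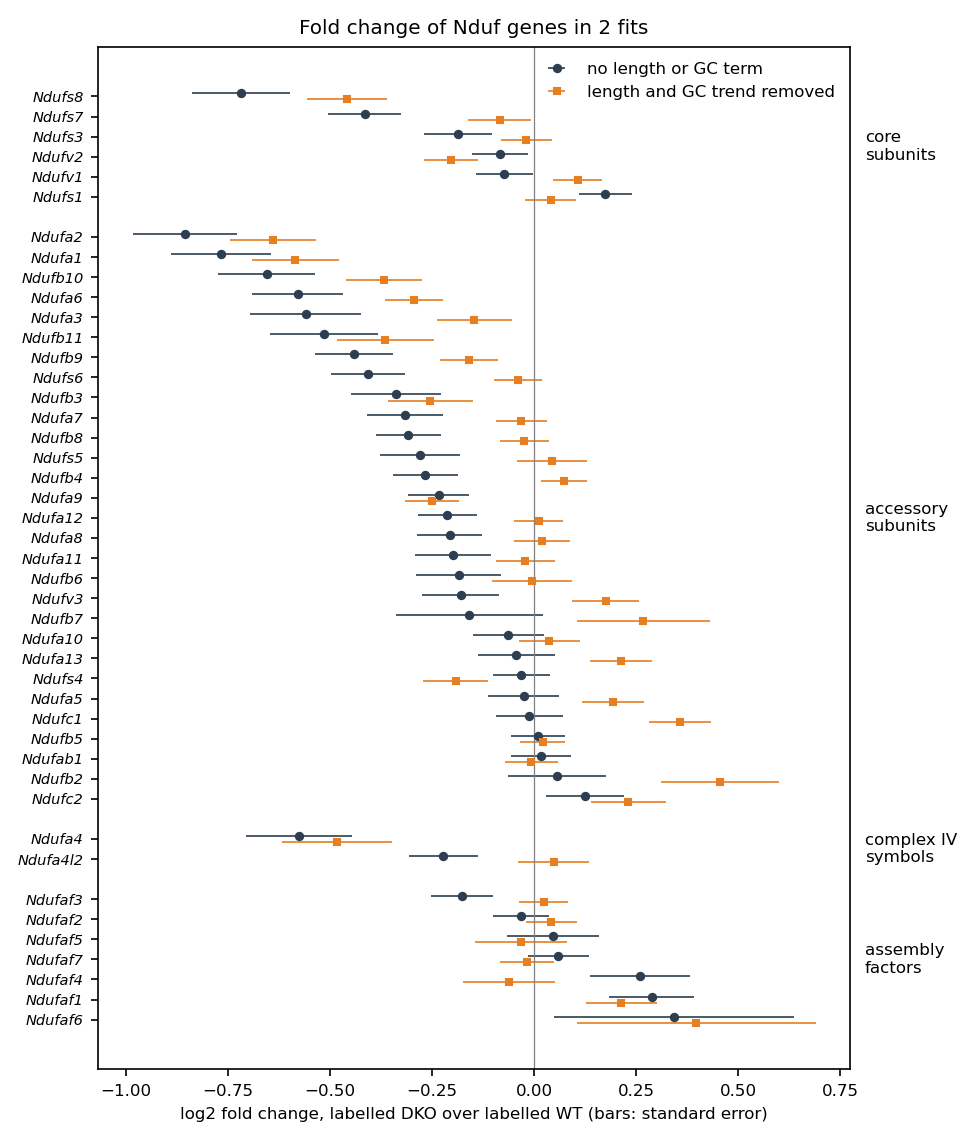
Log2 fold change, labelled DKO over labelled WT, of Nduf genes grouped by role, with bars for the standard error, from the edgeR fit without a length or GC term (dark circles) and from the fit with trends on transcript length and GC removed (orange squares). Ndufa2, Ndufa1 and Ndufs8 stay left of 0 in both fits, while Ndufc1 moves from -0.01 to 0.36.

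Most subunit transcripts are short, so the deposited length was set beside each fold change. The median length was 646 bases for the 36 subunits and 1451 bases for the 7 assembly factors, against 2623 bases over all tested genes. Each of the 11 lower subunits had a transcript under 1000 bases, as did 16 of the 25 that did not pass. Fragments longer than a transcript cannot come from it, so longer fragments leave fewer possible positions on a short transcript. For Ndufa3 (349 bases), the effective length was 87.3 bases on average in DKO-labelled libraries and 123 bases in WT-labelled ones. For Ndufs1 (2710 bases) these were 2417 and 2467 bases.

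Genes of the same length class differed in how often subunits fell. Under 600 bases, 4 of 15 subunits were lower, against 24.2% of all tested genes of that length. From 600 to under 1000 bases, 7 of 12 were lower, among them Ndufa2, Ndufs8, Ndufb10 and Ndufs7, against 12.7% of all genes. From 1000 to under 2000 bases 0 of 7 were lower, against 6.61%, and at 2000 bases and over 0 of 2 were, against 2.81%. The share of subunits was therefore close to that of other genes in the shortest class and above it in the next.

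Fold changes also moved with the GC content of the transcript. The median log2 fold change of all tested genes was 0.23 at a GC content under 45% and -0.19 at 55% and over. At 55% and over, 6 of 11 subunits were lower, against 11.9% of all genes. Among genes under 1000 bases with a GC content of at least 50%, 10 of 21 subunits were lower, against 23.1% of all genes with that length and GC content. Among those under 1000 bases with a lower GC content, 1 of 6 subunits was lower (Ndufa1), against 7.91%. The bounds on GC content were chosen after the data were seen, and the part of length and GC content in the lower levels was examined only through the fits below.

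**Figure D4:**
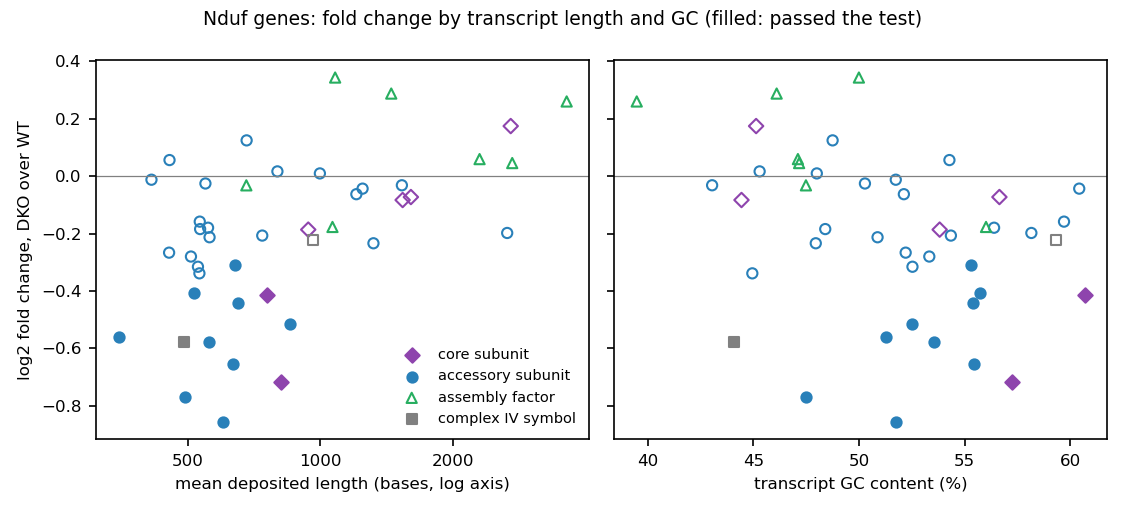
Log2 fold change, labelled DKO over labelled WT, of Nduf genes against the mean deposited length (left, log axis) and the transcript GC content (right); marker shape gives the role and filled markers passed the edgeR test. Filled subunit markers all lie under 1000 bases, with Ndufa3 the shortest at 349 bases.

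When effective lengths entered the model as an offset, 7 of the 36 subunits were lower and 1 was higher, against 4.12% lower and 5.59% higher of all genes. The median of the subunits was then -0.06. A length trend removed from each library left 7 lower and 0 higher, against 4.73% and 5.66% of all genes, and limma on log2(TPM + 1) also gave 7 and 0, against 2.67% and 1.63%. With the effective-length offset, Ndufa2 fell by 0.69, Ndufs8 by 0.63, Ndufa1 by 0.52 and Ndufb10 by 0.51 on the log2 scale. Ndufa3 had -0.12 (edgeR adjusted p = 0.464), Ndufs6 -0.17 (0.156), Ndufb8 -0.16 (0.162) and Ndufb9 -0.30 (0.0503) in that fit. Ndufb11 passed in it at -0.43 (edgeR adjusted p = 0.0490), but not with the length trend removed (-0.43; 0.0582). When trends on length and GC were removed library by library, an alternative added after the data were seen, 4 of 36 subunits were lower, against 1.46% of all genes, and 1 was higher, against 1.96%. The 4 were Ndufa2 (-0.64 on the log2 scale, SE 0.105; edgeR adjusted p = 0.0187), Ndufa1 (-0.59, SE 0.106; 0.0235), Ndufs8 (-0.46, SE 0.0985; 0.0360) and Ndufa6 (-0.30, SE 0.0711; 0.0485). Ndufb10 missed the threshold there at -0.37 (edgeR adjusted p = 0.0555). Ndufb11 (-0.36; edgeR adjusted p = 0.109), Ndufb9 (-0.16; 0.219) and Ndufb8 (-0.02; 0.858) did not pass with both trends removed either. Ndufs7, which passed with the effective-length offset (-0.31; edgeR adjusted p = 0.0450), had -0.08 with both trends removed (0.567). The median of the subunits was -0.01, and that of the core subunits -0.02. With the mean fragment length as a covariate, 0 subunits passed the edgeR test, as 0.00584% of all genes were lower and 0.0% higher. At an unadjusted p under 0.05 there was 1 of the 36 (2.78%), against 3.19% of all genes. That covariate does not overlap between the groups, and Ndufa2, Ndufa1, Ndufs8 and Ndufa6 had log2 fold changes of -0.66, -0.30, -0.44 and -0.21 in it.

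The subunit that was higher was Ndufc1, a small membrane arm subunit with a transcript of 414 bases, singled out after its values were seen. In CPM its groups overlapped, with 26.3, 28.9 and 30.4 in DKO-labelled libraries and 30.3, 27.6 and 28.6 in WT-labelled ones. In TPM, which is scaled by effective length, it had 298, 270 and 312 against 255, 229 and 239, with no overlap. Its log2 fold change was -0.01 without a length term (edgeR adjusted p = 0.934), 0.33 with the effective-length offset (SE 0.0859; 0.0419) and 0.36 with the length and GC trends removed (SE 0.0756; 0.0354). On log2(TPM + 1) it was 0.28 (limma adjusted p = 0.0558). Tmem261 was higher in the same offset fits, at 0.44 with the effective lengths (edgeR adjusted p = 0.0369) and 0.44 with both trends removed (0.0390).

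The deposited length of a gene moves when the estimated mix of its transcripts moves, and 6 of the 45 genes have several transcripts in the tables. For Ndufa7 the length was 526.9 to 527.3 bases in DKO-labelled libraries and 528.4 to 529.2 bases in WT-labelled ones. For Ndufs6 it was 515.8 to 517.2 bases against 517.4 to 520.0 bases. Both pairs of ranges are separate (exact two-sided permutation p = 0.1 each, the smallest that 3 against 3 libraries allow), but the means differ by only -1.83 and -1.91 bases. Ndufv3, which is known for a short and a long isoform, ranged more widely within each group, from 545 to 573 bases in DKO-labelled libraries and from 545 to 563 bases in WT-labelled ones. Ndufs1, Ndufs8 and Ndufv2 overlapped as well. With 3 against 3 libraries the permutation test could not reach a p under 0.05, so it could not decide whether any deposited length changed. Such lengths cannot show a shift between transcripts of similar length, nor any change in genes with a single listed transcript.

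Promoters were read for 39 of the 45 genes from RefSeq sequences of GRCm38.p6, to see whether the lower subunits share sequence. The window was the 250 bases before the first listed start. That start is not always the outer end of the gene. The windows of Ndufs7 and Ndufa13 lay wholly inside the listed span of the gene, and those of others, such as Ndufa5 and Ndufa10, lay partly inside it. The motif TGACGTCA, a cyclic AMP response element, was found on either strand in 3 of 32 subunit promoters (9.38%; Ndufa10, Ndufa11 and Ndufb2), against 1.62% of all promoters. The consensus of NRF1, a known activator of respiratory chain genes, was found in 1 of 32, against 0.781% of all. The ETS motif CCGGAAG was in 3 of 32 (9.38%, against 7.05%) and the SP1 motif GGGGCGGGG in 4 of 32 (12.5%, against 10.5%). The YY1 consensus and the motif TCAAGGTCA of estrogen-related receptor alpha were in 0 of 32. Of the 9 lower subunits with a promoter, only Ndufa3 held any of these letters, the SP1 motif. The windows of Ndufs8 (chr19:3912775-3913024, minus strand) and Ndufb10 (chr17:24724424-24724673, minus strand), both lower, are shown beside that of Ndufa11 (chr17:56717512-56717761, plus strand), which did not pass the test. Capitals mark motif matches, here TGACGTCA and the NRF1 consensus in Ndufa11.
Ndufs8: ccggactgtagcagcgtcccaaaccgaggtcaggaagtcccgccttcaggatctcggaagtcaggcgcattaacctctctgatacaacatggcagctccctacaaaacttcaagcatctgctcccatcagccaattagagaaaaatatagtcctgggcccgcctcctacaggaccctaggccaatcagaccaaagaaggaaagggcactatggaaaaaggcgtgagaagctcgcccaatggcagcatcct
Ndufb10: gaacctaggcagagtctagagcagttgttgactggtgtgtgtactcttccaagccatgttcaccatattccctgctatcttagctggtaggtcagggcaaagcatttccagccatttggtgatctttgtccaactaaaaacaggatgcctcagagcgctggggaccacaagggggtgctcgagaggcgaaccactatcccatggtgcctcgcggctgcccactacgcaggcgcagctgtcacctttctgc
Ndufa11: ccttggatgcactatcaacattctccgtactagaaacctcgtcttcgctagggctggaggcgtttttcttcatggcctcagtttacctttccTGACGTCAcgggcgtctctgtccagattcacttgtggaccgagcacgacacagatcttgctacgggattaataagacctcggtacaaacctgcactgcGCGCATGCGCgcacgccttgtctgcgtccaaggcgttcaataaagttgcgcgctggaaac

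Some counts are uncertain for reasons of annotation. According to the RefSeq table, 14 of the 45 genes overlap another gene, and strand handling is not given in the sources used here. Among the lower genes this touches Ndufa2 (with Tmco6), Ndufa1 (with Rnf113a1), Ndufb11 (with Rbm10) and Ndufs7 (with a transfer RNA gene). Ndufa13 overlaps the spermatid kinase gene Tssk6. Ndufa13 and Ndufs5 carried fractional counts in all 6 libraries, which arise when fragments are shared between genes, and neither passed the test.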

How the data were processed

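The files are gene-level RSEM output, 1 table for each library, per the file headers. The submitters' processing notes name STAR 2.7.0f, RSEM 1.2.31, DESeq2 1.12.3 and the build mm10, without role or order. Expected counts deposited by the authors are estimated fragments per gene, of which 93.2% were whole. TPM values deposited by the authors are scaled by effective length so that every library has the same sum. Length and effective length, in bases per gene, come from the same deposited tables.

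Expected counts were rounded, genes were kept by filterByExpr, TMM set the library sizes, and the genotypes were compared over all 6 libraries by the edgeR 4.0.16 quasi-likelihood test with genotype as the only term (R 4.3.3). P-values were adjusted over all 17110 tested genes by the Benjamini-Hochberg method. A log2 fold change is labelled DKO over labelled WT, and its SE is its size divided by the square root of F. CPM is the TMM-scaled value per library. Mean fragment length was read from the gap between both lengths, as its median in genes above 3000 bases. GC content came from GENCODE M21 transcripts with the same RefSeq accessions (98.4% of tested genes). Arms of the complex and the lists of markers and assembly genes are textbook assignments.

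Genes named with values are core subunits, all Ndufaf genes, every called member, the 3 largest and smallest fold changes, the 3 highest and lowest levels, and members whose length does not overlap between groups; others were added to account for every member. One member is counted in its groups and not reported here by itself. Members and lists were chosen with earlier results of these data known. Replicates were numbered in order of deposition. Alternatives were other scaling, filters, rounding, offsets from effective length or a length trend, fragment length as a covariate, thinning to the smallest library, DESeq2 1.42.0, limma 3.58.1 (voom, log2(TPM + 1) and log2(TPM + 0.1)) and leaving out each library. Added after the data were seen was an offset for length and GC trends (mgcv 1.9.3). The edgeR script was tested on simulated counts. FPKM was not used.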

Additional observations from a re-analysis of the deposited data

How the results depend on the processing

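No paired analysis was possible because the labels give the samples no number shared between the groups. The lower subunit count of 11 was 7 with the effective-length offset, 7 with the length trend removed, 4 with the length and GC trends removed, 0 with the fragment length covariate, and 7 on log2(TPM + 1) and on log2(TPM + 0.1). It was 11 to 16 with the other 7 settings that kept all libraries, the highest by DESeq2, and 0 to 13 when a replicate was left out. The count of higher subunits was 1 with the effective-length offset and 1 with the length and GC trends removed, and 0 in each of the 6 fits without a replicate. The subunit median of -0.20 was -0.063 with the effective-length offset, -0.013 with both trends removed and -0.020 with the covariate, and -0.26 to -0.17 without a replicate. For assembly factors, the higher count was 0 to 1 and the median 0.05 to 0.09 without a replicate. That median of 0.06 was 0.10 with either length offset, 0.12 after thinning, 0.024 with both trends removed and -0.0034 with the covariate. Over all genes, 249 were lower and 336 higher with both trends removed, 1 and 0 with the covariate, 456 and 279 on log2(TPM + 1), and 577 and 370 on log2(TPM + 0.1). DESeq2 called 1658 higher. Without a replicate, 7 to 1126 were lower and 0 to 1903 higher. Ndufa2, Ndufa1, Ndufs8 and Ndufa6 were lower past the threshold in 12 of the 13 settings that kept all libraries, the covariate fit being the exception, and in 3 of 6 fits that left out a replicate. Ndufaf6 was removed by the mean count minimum of 50.

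Log2 fold changes of members that changed sign, none of which passed the test in the fit described first, are given by setting. Of these, Ndufb4 passed with 4 of the other settings without a length term that kept all libraries, and Ndufb3 and Ndufs5 passed by DESeq2. With the effective-length offset these were 0.17 for Ndufa5, 0.10 for Ndufaf2, 0.022 for Ndufb4, 0.029 for Ndufb6, 0.061 for Ndufb7, 0.33 for Ndufc1 and 0.0074 for Ndufv3. With the fragment length covariate these were 0.16 for Ndufa10, 0.094 for Ndufa11, 0.18 for Ndufa13, 0.13 for Ndufa5, -0.0034 for Ndufaf1, -0.077 for Ndufaf6, -0.040 for Ndufb2, 0.050 for Ndufb3, -0.0014 for Ndufb5, 0.10 for Ndufb6, 0.57 for Ndufb7, 0.096 for Ndufc1, 0.10 for Ndufs3, 0.12 for Ndufs4, 0.057 for Ndufs5, 0.012 for Ndufv1 and 0.016 for Ndufv3. With the length and GC trends removed these were 0.037 for Ndufa10, 0.011 for Ndufa12, 0.21 for Ndufa13, 0.048 for Ndufa4l2, 0.19 for Ndufa5, 0.019 for Ndufa8, -0.0064 for Ndufab1, 0.042 for Ndufaf2, 0.024 for Ndufaf3, -0.061 for Ndufaf4, -0.032 for Ndufaf5, -0.017 for Ndufaf7, 0.074 for Ndufb4, 0.27 for Ndufb7, 0.36 for Ndufc1, 0.044 for Ndufs5, 0.11 for Ndufv1 and 0.18 for Ndufv3. With the length trend removed these were 0.0042 for Ndufa13, 0.15 for Ndufa5, 0.10 for Ndufaf2, 0.011 for Ndufb7, 0.21 for Ndufc1 and 0.0038 for Ndufs4. On log2(TPM + 0.1) these were 0.13 for Ndufa5, 0.056 for Ndufaf2, -0.013 for Ndufaf5, 0.059 for Ndufb7 and 0.28 for Ndufc1. On log2(TPM + 1) these were 0.12 for Ndufa5, 0.056 for Ndufaf2, -0.0098 for Ndufaf5, 0.059 for Ndufb7 and 0.28 for Ndufc1. After thinning the value was 0.0069 for Ndufs4. When a replicate was left out, values ranged from -0.14 to 0.025 for Ndufa10, from -0.13 to 0.036 for Ndufa13, from -0.11 to 0.018 for Ndufa5, from -0.023 to 0.029 for Ndufab1, from -0.078 to 0.0070 for Ndufaf2, from -0.019 to 0.091 for Ndufaf5, from -0.0097 to 0.13 for Ndufb2, from -0.025 to 0.024 for Ndufb5, from -0.39 to 0.065 for Ndufb7 and from -0.062 to 0.029 for Ndufc1. The cause of these changes was not tested. Ndufaf6, the least counted member, had 12 counts in its lowest library.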
